A study of Mus musculus with 28 samples.

Results

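The genes described here are 10 members of the DARPP-32 and cAMP-protein kinase A cascade of striatal spiny neurons: Ppp1r1b, Gnal, Gng7, Gnb1, Adcy5, Prkar1b, Prkar2b, Prkaca, Ptpn5 and Arpp21. They were found by their symbols among 23309 listed gene symbols, and all 10 were among the 12760 genes that were tested, those whose FPKM averaged 1 or more. FPKM counts fragments relative to transcript length and to the total of mapped fragments, and a gene's FPKM is the sum over its RefSeq transcripts. RNA came from the striatum of C57BL/6J mice, 16 given haloperidol and 12 given placebo, in an experiment whose title calls the haloperidol chronic. There were 2 batches, with 8 mice of each group in batch 1, and 8 haloperidol and 4 placebo mice in batch 2. Both groups were of the same strain, bred within a few generations of purchased founders; dose, length of treatment, sex and age were not among the labels. Each library carries the number of 1 mouse, used here as its replicate number.

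DARPP-32, the product of Ppp1r1b, sits where dopamine and glutamate signals meet in spiny projection neurons. Dopamine D1 receptors and the adenosine receptor encoded by Adora2a act there through the G protein Golf, made of an alpha subunit (Gnal) with beta and gamma subunits such as those from Gnb1 and Gng7, which drives adenylyl cyclase 5 (Adcy5). The cAMP it makes binds the regulatory subunits of protein kinase A (Prkar1b, Prkar2b) and frees the catalytic subunit (Prkaca), which phosphorylates DARPP-32 and turns it into an inhibitor of protein phosphatase 1. D2 receptors, the main targets of haloperidol, act through Gi and Go proteins and lower cAMP in the neurons of the indirect pathway. Ptpn5 encodes STEP, a striatum-enriched tyrosine phosphatase that protein kinase A phosphorylates, and Arpp21 encodes ARPP-21, another of its striatal substrates.

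The promoter bases of 4 members are shown because they differ in the co-variation described further on, where only group means were removed. There, Ptpn5 varied with Ppp1r1b, Adcy5 and Arpp21 varied with Gnal, and Gng7 varied with both. This grouping was not kept when the FPKM sum of each library was also removed. Pearson's r of Ptpn5 then went from 0.042 to 0.81 with Gnal and from 0.093 to 0.89 with Arpp21. A link between promoter bases and co-variation was not tested. RefSeq's promoter table (build GRCm38.p6) held an entry for 8 of the 10 members, all but Ppp1r1b and Gnal. Each sequence is the 250 bases before the start of the most abundant transcript, read 5′ to 3′ on the gene's strand, and that start was matched to the deposited one by the spacing between a gene's starts, or, for Adcy5, as its only entry. Capitals mark the GC box GGGCGG on either strand.
Ptpn5 chr7:47132599-47132848, minus strand: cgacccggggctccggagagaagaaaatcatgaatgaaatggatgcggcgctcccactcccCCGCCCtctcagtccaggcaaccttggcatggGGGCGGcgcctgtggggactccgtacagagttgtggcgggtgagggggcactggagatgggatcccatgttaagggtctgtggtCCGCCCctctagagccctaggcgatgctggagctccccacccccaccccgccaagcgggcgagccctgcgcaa
Gng7 chr10:81014926-81015175, minus strand: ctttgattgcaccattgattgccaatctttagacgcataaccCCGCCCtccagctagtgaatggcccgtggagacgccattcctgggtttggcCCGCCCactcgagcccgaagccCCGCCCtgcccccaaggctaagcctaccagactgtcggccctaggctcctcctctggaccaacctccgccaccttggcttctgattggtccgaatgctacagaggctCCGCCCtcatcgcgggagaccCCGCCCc
Adcy5 chr16:35154614-35154863, plus strand: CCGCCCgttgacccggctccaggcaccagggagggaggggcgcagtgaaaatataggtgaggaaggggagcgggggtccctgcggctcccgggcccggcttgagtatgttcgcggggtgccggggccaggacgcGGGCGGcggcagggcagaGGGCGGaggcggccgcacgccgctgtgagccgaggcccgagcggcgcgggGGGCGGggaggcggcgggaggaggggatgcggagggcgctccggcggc
Arpp21 chr9:112187930-112188179, minus strand: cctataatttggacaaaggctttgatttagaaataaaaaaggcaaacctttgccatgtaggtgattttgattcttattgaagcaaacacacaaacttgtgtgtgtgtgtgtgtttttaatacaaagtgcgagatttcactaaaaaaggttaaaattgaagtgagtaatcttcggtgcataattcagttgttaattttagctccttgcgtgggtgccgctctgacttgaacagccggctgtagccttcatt
The window held 3 GC boxes in Ptpn5, 5 in Gng7, 4 in Adcy5 and 0 in Arpp21, and 32.7% of 32817 promoters of this length held at least 1. The GC content was 66.0% for Ptpn5, 62.8% for Gng7, 78.0% for Adcy5 and 37.2% for Arpp21, against a median of 52.4% over all promoters. The cAMP response element TGACGTCA, its core TGACG (which also counts any full element) and the TATA letters TATAAA were searched on both strands and occurred 0 times in all 4 windows. Over all promoters, 1.55% held the full element, 17.7% the core and 12.4% the TATA letters.

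The libraries differed in ways that the text returns to where they touch a member. The FPKM of a library summed to between 380952 and 575171, and depth relative to the other libraries, from the ratio of coverage to FPKM, ranged from 0.405 to 1.62; absolute depth is unknown. The RNA integrity number (RIN) in the labels was 7.08 to 8.97. Across genes, 0 of 378 pairs of libraries held identical values, and Pearson's r of log2 level was 0.886 for the least and 0.988 for the most alike pair. Striatal marker genes were present in all 28 libraries, with 38.9 to 112 scaled FPKM for the dopamine receptor Drd2, 20.5 to 52.4 for Drd1a and 541 to 1375 for the opioid precursor Penk. Markers of neighbouring tissue were present too: the 9 cortical excitatory neuron markers summed to 177 to 521 scaled FPKM in haloperidol and 175 to 432 in placebo libraries, and the 7 choroid plexus markers to 109 to 9363 and 21.5 to 7839. The difference between treatment groups lay within the spread between mice for RIN, FPKM sum, relative depth, cortical and choroid plexus marker level (permutation within batches, p = 0.850, 0.235, 0.425, 0.302 and 0.341). In batch 2 alone, log2 relative depth was 0.76 higher in haloperidol (exact permutation p = 0.00808). The mean log2 choroid plexus marker level was 1.00 higher there and the cortical level 0.16 lower (exact permutation p = 0.0929 and 0.0646). In batch 1 alone, haloperidol minus placebo was -0.21 for depth, 0.067 for choroid plexus and -0.11 for cortical markers (exact permutation p = 0.496, 0.924 and 0.590).

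Ppp1r1b was the most abundant member by a wide margin. It averaged 937 ± 225 scaled FPKM (SD, n = 28), rank 42 of 12760 genes, 3.51 times the next member, with ranges that did not overlap. Prkar1b followed at 267 ± 36.7 (SD, n = 23), leaving out 5 libraries that list it at 0; with those zeros its mean was 219 ± 109 (SD, n = 28). Gng7 at 239 ± 47.5 and Arpp21 at 238 ± 61.9 came next (SD, n = 28). Prkar1b exceeded Gng7 in 15 and Arpp21 in 12 of the 23 libraries, and Gng7 exceeded Arpp21 in 14 of 28, so the order of these 3 was not resolved. Ptpn5 (179 ± 33.8) and Gnb1 (176 ± 20.5) formed the next neighbours, with Ptpn5 the higher in 12 of 28 libraries. Adcy5 averaged 118 ± 25.6 and lay under Gnb1 in 28 of 28 libraries. Prkaca (94.1 ± 6.01) and Gnal (85.5 ± 17.01) overlapped, with Prkaca higher in 16 libraries. Prkar2b, the RII-beta regulatory subunit, was lowest at 29.6 ± 4.73, under Gnal in 28 of 28 libraries.

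**Figure D1:**
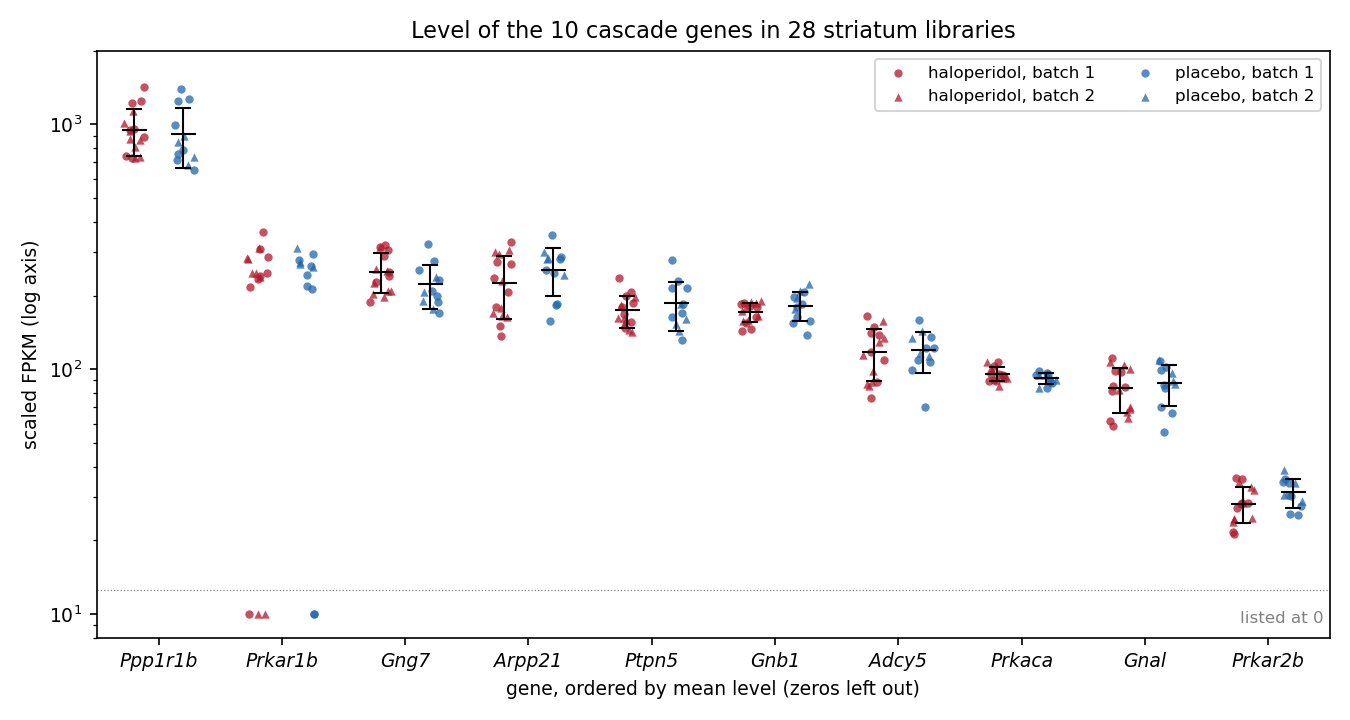
Scaled FPKM (log axis) of each member in the 28 libraries, with haloperidol in red, placebo in blue, circles for batch 1 and triangles for batch 2; black lines are the mean and SD (not drawn for Prkar1b). The haloperidol and placebo points overlap for every member, and the 5 libraries that list Prkar1b at 0 are drawn under the dotted line.

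The members differed in how steady they were between mice. After the means of the treatment-by-batch groups were removed, the SD of log2 level was 0.090 for Prkaca, smaller than in all but 1.80% of genes. It was 0.15 for Gnb1, 0.33 for Ppp1r1b and 0.40 for Arpp21, against a median of 0.27 over all genes. Cufflinks' own interval around the FPKM was narrow, with a median half-width of 1.98% for Ppp1r1b and 8.39% for Prkar2b. That interval does not hold the spread between mice, and its bounds did not always enclose the value. The deposited FPKM of Ppp1r1b lay above the upper bound of its own interval in 28 of 28 libraries, by a median ratio of 1.09. The same held in 23 libraries for Prkaca, 9 for the main Arpp21 transcript and 8 for Adcy5, and 8.75% of all transcript values of FPKM 1 or more lay outside their interval.

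Prkar1b, the RI-beta regulatory subunit found mainly in the nervous system, was listed at 0 in 5 libraries and at 212 to 362 scaled FPKM in the other 23, with nothing between. The libraries at 0 were placebo replicates 4 and 10 and haloperidol replicates 19, 23 and 31. Their FPKM sums were 518159 to 554440, which places them among the 7 libraries with the highest sums, and their RIN was 7.08 to 7.84. An exact 0 beside such levels can be a failed estimate, and 18 genes with a median FPKM of 10 or more had an exact 0 in at least 1 library. Values of Prkar1b are therefore given over the 23 other libraries, or both with and without the zeros.

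Whether the cascade responded to haloperidol at the level of transcripts is the comparison the design implies. No member passed the test: 0 of 10 reached an adjusted p under 0.05 in limma with batch in the model, where 0.00784% of all genes (1 of 12760) did. At an unadjusted p under 0.05 the count was 1 of 10, Gng7, against 6.29% of all genes. The median log2 fold change of the members was -0.062, with 3 of 10 above 0. With exact zeros treated as missing it was -0.038, with 4 of 10 above 0, and the median of all genes was 0.0041. In bulk tissue, fewer cells of a type and less RNA per cell cannot be told apart, so these values describe the tissue. Each library is 1 mouse, and the p-values set a group difference against the spread between these mice.

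The subunits of the G protein came closest to a difference through Gng7, the gamma subunit paired with Golf in the striatum. Gng7 ranged from 188 to 323 scaled FPKM in haloperidol (median 245) and from 170 to 324 in placebo (median 208). The groups overlapped across nearly their whole range, and 11 of 16 haloperidol libraries lay above the placebo mean. The log2 fold change was 0.21 (SE 0.0997, 95% interval 0.00055 to 0.41), with unadjusted p = 0.0483 and adjusted p = 0.565 in limma. It was 0.22 in batch 1 alone and 0.19 in batch 2 alone. The unadjusted p stayed under 0.05 in 21 of 45 alternative settings, and in 12 of the 28 that each left out 1 library. Gnal, the Golf alpha subunit, ranged from 58.9 to 111 in haloperidol (median 83.2) and from 55.5 to 109 in placebo (median 88.4). Both ranges were nearly the same, and its log2 fold change was -0.080 (SE 0.115, 95% interval -0.32 to 0.16, limma adjusted p = 0.685). Gnb1, a beta subunit used by many G proteins, ranged from 144 to 189 in haloperidol (median 176) and from 138 to 223 in placebo (median 182). The highest placebo libraries lay above every haloperidol library, and the log2 fold change was -0.10 (SE 0.0644, 95% interval -0.24 to 0.029, limma adjusted p = 0.565).

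Adcy5, the main striatal adenylyl cyclase, averaged 118 ± 28.2 scaled FPKM in haloperidol (SD, n = 16) and 119 ± 22.8 in placebo (SD, n = 12). Its log2 fold change was -0.033 (SE 0.126, 95% interval -0.29 to 0.23, limma adjusted p = 0.882), positive at 0.084 in batch 1 and negative at -0.21 in batch 2. No subunit of protein kinase A passed the threshold either. Prkaca, the catalytic subunit, ranged from 85.8 to 107 in haloperidol (median 94.5) and from 83.9 to 98.4 in placebo (median 92.9). Its small spread gave the narrowest interval of any member: a log2 fold change of 0.063 (SE 0.0418, 95% interval -0.023 to 0.15, limma adjusted p = 0.565), and 12 of 16 haloperidol values exceeded the placebo mean. Prkar2b ranged from 21.2 to 36.0 in haloperidol (median 28.2) and from 25.4 to 38.9 in placebo (median 30.7). The lowest libraries were haloperidol libraries, and 5 of 16 haloperidol libraries lay above the placebo mean. The log2 fold change of Prkar2b was -0.16 (SE 0.0854, 95% interval -0.34 to 0.011, unadjusted p = 0.0638, limma adjusted p = 0.565). Its unadjusted limma p was under 0.05 in 10 of 45 alternative settings, against 1 for Prkaca. Prkar1b averaged 270 ± 41.2 in the 13 haloperidol libraries with a value and 263 ± 31.7 in the 10 such placebo libraries (SD). With the zeros treated as missing its log2 fold change was 0.028 (SE 0.0872, limma adjusted p = 0.854); with the zeros kept it was -0.21 with an SE of 1.35, and 3 of 16 haloperidol and 2 of 12 placebo libraries were at 0.

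The phosphoproteins and the phosphatase at the end of the cascade did not separate the groups either. Ppp1r1b ranged from 728 to 1427 scaled FPKM in haloperidol (median 913) and from 652 to 1402 in placebo (median 820). Each group held libraries near both ends of the range, and the log2 fold change was 0.11 (SE 0.125, 95% interval -0.15 to 0.37, limma adjusted p = 0.630). Ptpn5 ranged from 141 to 235 in haloperidol (median 165) and from 132 to 281 in placebo (median 177). Placebo held both its lowest and its highest library, and the log2 fold change was -0.044 (SE 0.0916, 95% interval -0.23 to 0.14, limma adjusted p = 0.781). Arpp21 ranged from 136 to 332 in haloperidol (median 218) and from 157 to 354 in placebo (median 268). It had the lowest point estimate of the 10 members, yet the groups overlapped and the log2 fold change was -0.22 (SE 0.147, 95% interval -0.52 to 0.082, limma adjusted p = 0.565). These intervals bound what 28 mice can show: the interval of Prkaca stays under a log2 change of 0.15, while that of Arpp21 reaches -0.52.

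**Figure D2:**
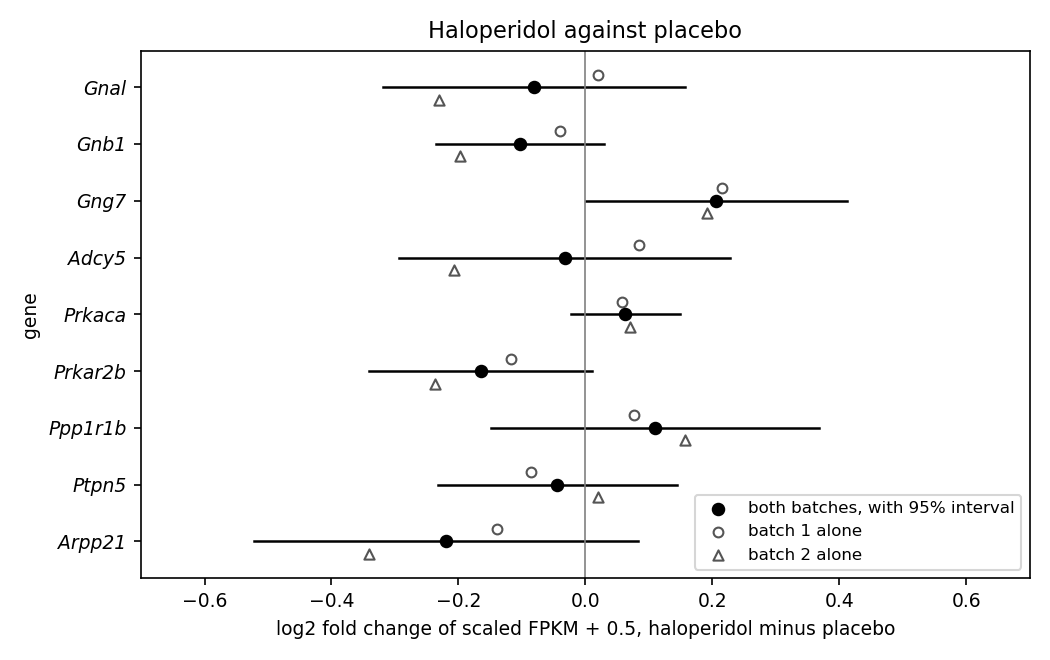
Log2 fold change of haloperidol against placebo for 9 members, as a filled point with its 95% interval from limma, with batch 1 alone (open circles) and batch 2 alone (open triangles); Prkar1b is left out because 5 libraries list it at 0. Only the interval of Gng7, from 0.00055 to 0.41, lies on one side of 0, and Gnal, Adcy5 and Ptpn5 have points on both sides.

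Ppp1r1b, Arpp21 and Gnal each overlap an antisense gene in their exons. The labels call the libraries strand-specific, although the kit they name does not mark strand in its standard form; no source used here says that the quantification used strand, so reads of a member and of its antisense partner may not have been told apart. Ppp1r1b (mm9 chr11:98210052-98219109, plus strand, 7 exons) shares 164 of its 1666 exon bases with 1700003D09Rik, which averaged 2.71 FPKM against 935 for Ppp1r1b. Arpp21 (mm9 chr9:111967595-112137345, minus strand) shares 291 of 10727 exon bases with 2900079G21Rik, at 11.3 FPKM against 239. Gnal shares 364 of 5760 exon bases with Mppe1, at 23.04 FPKM against 85.9. None of these 3 partners passed the haloperidol test: log2 fold changes were -0.26 for 1700003D09Rik, 0.14 for 2900079G21Rik and 0.019 for Mppe1, with limma adjusted p of 0.644, 0.668 and 0.914.

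The wider pathway gave the same count of calls as the members. Of 119 other genes in 12 role lists, 111 could be tested and 0 passed the threshold for haloperidol, where 0.00784% of all genes did. At an unadjusted p under 0.05, 3 were higher and 5 lower, a count of 8 of 111 to be read against 6.29% of all genes. The median log2 fold change was -0.072, with 37 of 111 above 0, against 6498 of 12760 of all genes. Of the 3 higher genes, the phosphodiesterase Pde2a, which cGMP stimulates to break down cAMP, had a log2 fold change of 0.12 (SE 0.0511, p = 0.0284). Gnai2, an inhibitory alpha subunit, had 0.18 (SE 0.0873, p = 0.0476), and Mapk3 (ERK1, a STEP substrate) 0.18 (SE 0.0871, p = 0.0433). Among the 5 lower genes, Pde7a, another cAMP phosphodiesterase, had -0.20 (SE 0.0786, p = 0.0151) and Gnai1 had -0.19 (SE 0.0847, p = 0.0362). Catalytic subunits of the phosphatases that act in the cascade were among them: Ppp1cb of protein phosphatase 1 had -0.23 (SE 0.0965, p = 0.0233) and Ppp2cb of protein phosphatase 2A had -0.15 (SE 0.0650, p = 0.0322). Grin2b, the NMDA receptor subunit that STEP dephosphorylates, had -0.33 (SE 0.129, p = 0.0169). The limma adjusted p of all 8 was 0.565, so none of them is called.

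By role, all 11 A-kinase anchoring proteins, the scaffolds that hold protein kinase A in place, had values under 0, with a median of -0.22, and 0 of 11 were above 0 also without scaling, after quantile normalization and after rescaling to a common sum. With the log2 FPKM sum as a covariate, 4 of 11 were above 0 and the median was -0.033. The smallest p among them belonged to Akap7 at -0.22 (SE 0.114, p = 0.0674), followed by Akap6 at -0.28 (p = 0.114) and Akap10 at -0.31 (p = 0.115). Batch 1 alone gave -0.16, -0.13 and -0.046 for these genes. Batch 2 alone, with its 4 placebo mice, gave -0.30, -0.52 and -0.71. Akap1 and Akap8 were above 0 in batch 1 alone (0.039 and 0.015). Over all genes, 6498 of 12760 were above 0 in the fit of both batches. Adenylyl cyclases other than Adcy5 had a median of -0.086 with 2 of 7 above 0, and Adcy1 had the smallest p among them at -0.32 (SE 0.186, p = 0.102). The 13 tested cAMP phosphodiesterases had a median of -0.15, and the 7 other kinase A subunits and inhibitors -0.10; Prkacb, the second catalytic subunit gene, had -0.19 (p = 0.181) and Prkar1a -0.10 (p = 0.146). The other beta and gamma subunits had a median of 0.035 with 7 of 12 above 0 (-0.052 with rescaling to a common sum), led in p by Gnb5 at -0.12 (p = 0.0820). The 8 genes of CREB and its co-activators had a median of -0.073; Crtc2 had 0.13 (p = 0.0605), Ep300 -0.29 (p = 0.0719) and Creb1 -0.21 (p = 0.0827). The remaining lists had medians of -0.016 for other alpha subunits, -0.033 for protein phosphatase 1 and its inhibitors, -0.048 for calcineurin and protein phosphatase 2A, -0.057 for other DARPP-32 kinases and -0.018 for STEP relatives and substrates. For ARPP and endosulfine phosphoproteins and their kinases it was 0.011, with 4 of 7 above 0. That list also held Pcp4, which is not one of these, and the median was the value of Pcp4 itself. A median without Pcp4 was not computed. The median of the list turned to -0.082 with quantile normalization and -0.080 with rescaling to a common sum. Every list had 0 genes called. Signs of several lists changed with the log2 FPKM sum as a covariate. Medians were then above 0 for the members (0.038, or 0.037 over the 9 without Prkar1b, 5 of them above 0), phosphodiesterases (0.014), other kinase A subunits and inhibitors (0.010), CREB and its co-activators (0.0037), other alpha subunits (0.0027), protein phosphatase 1 (0.024) and STEP relatives (0.0052). They turned to below 0 for the beta and gamma subunits (-0.0091) and the ARPP list (-0.062), and kept their sign for other adenylyl cyclases (-0.051), calcineurin and protein phosphatase 2A (-0.021) and other DARPP-32 kinases (-0.0044), as for the anchoring proteins.

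Batch 2 was compared with batch 1 in the same model, since members could vary with it. Again 0 of 10 members passed the threshold, where 0.408% of all genes (52 of 12760) did. Ptpn5 had the smallest p: it ranged from 132 to 281 scaled FPKM in batch 1 (median 186) and from 141 to 198 in batch 2 (median 160), and 1 of 12 batch 2 libraries lay above the batch 1 mean. Its log2 difference was -0.22 (SE 0.0916, unadjusted p = 0.0252, limma adjusted p = 0.175). Ppp1r1b and Gng7 had differences of -0.21 and -0.18, and Gnb1 0.13, with limma adjusted p of 0.234, 0.204 and 0.196. The haloperidol difference itself was not shown to change between batches: the interaction of treatment and batch called 0 of 10 members, where 0% of all genes were called, and 0 of 10 members had an unadjusted p under 0.05, where 1.61% of all genes (206) did. The smallest limma interaction p among the members was 0.204, for Prkar1b with its zeros kept. Among the other 9 members it was 0.241, for Gnb1.

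The deposited FPKM of the members' RefSeq transcripts gave an estimated share for each listed form. Ppp1r1b, Adcy5, Prkar2b and Prkaca are listed with 1 transcript each. For Gnal, NM_010307 made up 97.9% of the gene's level and NM_177137, which starts further upstream and encodes the extra-large form, 2.08%. For Gng7, NM_010319 made up 99.2%, for Ptpn5 NM_001163565 made up 95.3% and for Prkar1b NM_008923 made up 97.2%. Arpp21 is listed with 9 transcripts. NM_028755, a short form of 6 exons that ends early in the locus and encodes ARPP-21, made up 74.5% of the gene (67.3% to 86.7% over libraries). Forms of 19 exons that run on to the far end of the locus were minor: NM_001177618 made up 5.97%, NM_001177616 2.13% and NM_033264 2.09%. Gnb1 was split between NM_001160017 (46.0%), NM_001160016 (35.3%) and NM_008142 (18.7%), which share their start and end. The share of NM_001160016 ranged from 1.66% to 62.5% between libraries. Its level was 2.62 to 30.8 scaled FPKM in the 7 libraries with the highest FPKM sums, and 35.3 to 129 in the others. The split of Gnb1 thus moved with a library measure, and the cause was not tested.

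**Figure D3:**
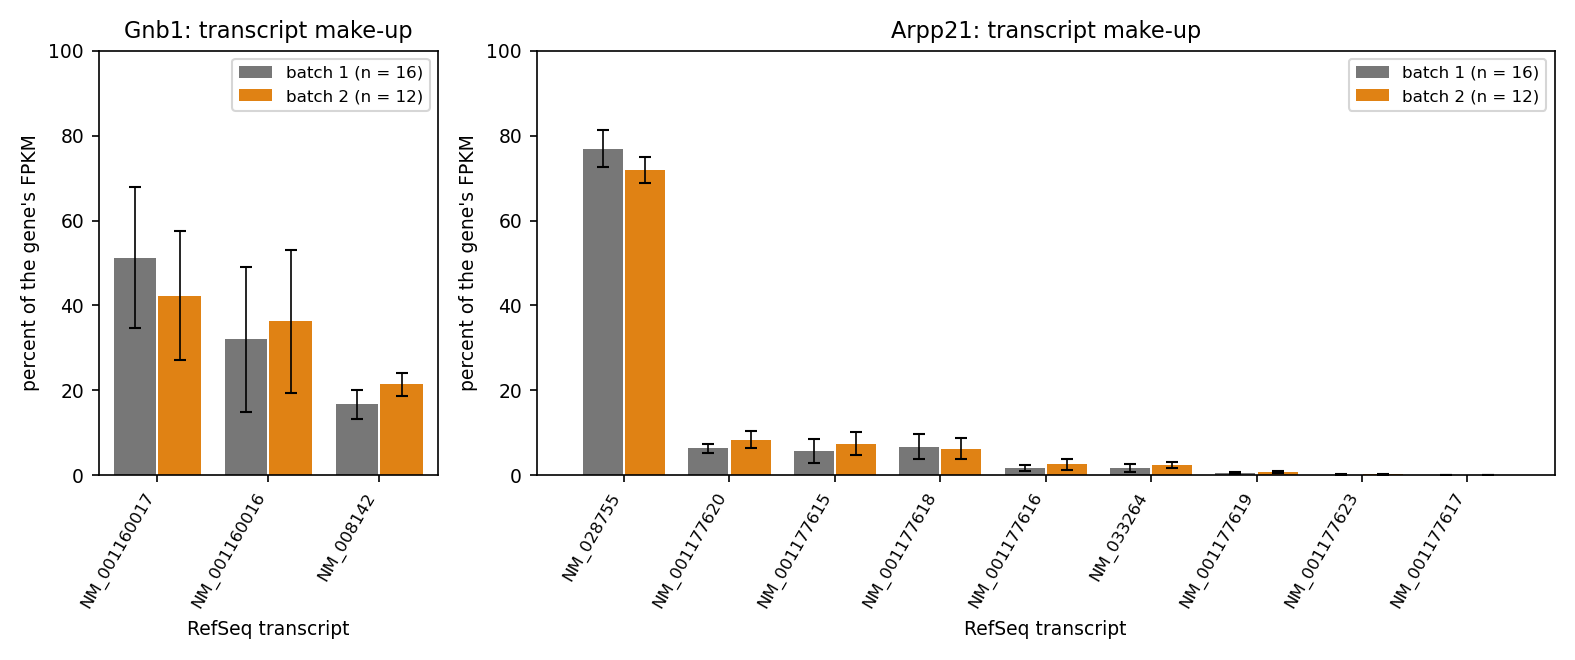
Percent of the gene's FPKM that each RefSeq transcript of Gnb1 and of Arpp21 makes up, as the mean over the 16 batch 1 libraries (grey) and the 12 batch 2 libraries (orange), with SD. Most of Arpp21 is NM_028755 in both batches, while NM_001160016 and NM_001160017 of Gnb1 have wide SDs, and NM_008142 of Gnb1 is 16.7% in batch 1 and 21.4% in batch 2.

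Of the 22 member transcripts abundant enough to be tested, 0 passed the haloperidol test, where 0.00653% of 15324 transcripts did. At an unadjusted p under 0.05 the count was 1, NM_010319 of Gng7 (log2 fold change 0.21, p = 0.0476), against 6.19% of all transcripts. What percent of its gene a transcript made up was tested for 18 member transcripts, and 0 passed, where 0% of all shares did; 0 had an unadjusted p under 0.05, against 5.07% of all shares. Between batches, 1 of 22 member transcripts was called, against 0.163% of all transcripts. This was NM_008142 of Gnb1, which ranged from 17.4 to 36.8 scaled FPKM in batch 1 (median 27.8) and from 32.2 to 49.1 in batch 2 (median 38.9). The batch 2 libraries were the higher, with an overlap between 32.2 and 36.8, and the log2 difference was 0.48 (limma adjusted p = 0.0407). The call was lost when 17 of the 28 libraries were left out one at a time (adjusted p up to 0.0968) and with RIN as a covariate (0.38, adjusted p = 0.590). For shares, 0 of 18 member transcripts were called between batches, where 0% of all shares were. At an unadjusted limma p under 0.05, the counts between batches were 6 of 22 transcripts and 9 of 18 shares. The percent of all transcripts and of all shares at that level was not computed, so these counts do not set the members apart. Shares within a gene also depend on each other.

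Across mice, the members did not move as one unit. After the means of the treatment-by-batch groups were removed, 23 of the 45 pairs of members had an adjusted permutation p under 0.05, and 21 of the 36 pairs that do not involve Prkar1b. How often pairs of other genes would pass was not computed, so this count does not set the members apart. Ppp1r1b rose and fell with Ptpn5 (Pearson r = 0.91, Spearman rho = 0.90, n = 28, adjusted permutation p = 5.62e-05) and with Gng7 (r = 0.81, rho = 0.78, adjusted permutation p = 5.62e-05). Without the 2 libraries farthest from the median of Ppp1r1b, r was 0.88 and 0.77. Within batch 1 r with Ptpn5 was 0.94 and within batch 2 it was 0.79. Gnal, by contrast, moved with Arpp21 (r = 0.95, rho = 0.96, adjusted permutation p = 5.62e-05), with Adcy5 (r = 0.91, rho = 0.89) and with Prkar2b (r = 0.91, rho = 0.89). For Gnal and Arpp21, r was 0.95 without the 2 farthest libraries, 0.94 in batch 1 and 0.98 in batch 2. Ppp1r1b itself had little relation to Gnal and Arpp21: r was 0.09 between Ppp1r1b and Gnal (rho = 0.09, adjusted permutation p = 0.755) and 0.10 between Ppp1r1b and Arpp21 (rho = 0.12, adjusted permutation p = 0.751). With Adcy5 it had r = 0.41 (rho = 0.38, adjusted permutation p = 0.0939). Gng7 was related to genes that moved with Gnal as well as to Ppp1r1b, with r = 0.78 to Adcy5 (rho = 0.74, adjusted permutation p = 0.000135), 0.57 to Arpp21 (rho = 0.56, adjusted permutation p = 0.0101) and 0.54 to Gnal (rho = 0.52, adjusted permutation p = 0.0169). The raw p of the strongest pairs was 1e-05, the smallest that 100000 permutations can give.

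With only the group means removed, the catalytic subunit ran against Gnal and the genes that moved with it. Prkaca had r = -0.67 with Gnal, -0.68 with Arpp21, -0.65 with Prkar2b and -0.60 with Adcy5 (rho = -0.67, -0.69, -0.63 and -0.58), with adjusted permutation p from 0.00115 to 0.00489. Its own range was small, 83.9 to 107 scaled FPKM. These relations shrank in alternatives chosen after the values were seen. With the log2 FPKM sum also removed, r of Prkaca was -0.38 with Gnal, -0.40 with Arpp21, -0.32 with Prkar2b and -0.38 with Adcy5. With RIN and the cortical and choroid plexus marker levels removed as well, r was 0.036, -0.19, -0.098 and 0.063. Gnb1 had r = 0.60 with Gnal (rho = 0.63), but -0.61 with Ptpn5 (rho = -0.59) and -0.53 with Ppp1r1b (rho = -0.50, adjusted permutation p = 0.0311). That last relation did not hold in both batches: r was -0.67 in batch 1 and 0.02 in batch 2. For Prkar1b the sign of r differed with and without the 5 zeros for 6 of 9 partners. With them r was 0.44 with Gnal; over the 23 other libraries it was -0.56 (rho = -0.53, adjusted permutation p = 0.0304 over 9 pairs), and it was -0.69 with Gng7, -0.67 with Adcy5 and 0.70 with Prkaca.

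These relations moved with measures of the libraries. The FPKM sum, as log2, was negatively related to Prkar2b (r = -0.84, rho = -0.84), Gnal (r = -0.82, rho = -0.81), Gnb1 (r = -0.82, rho = -0.82) and Arpp21 (r = -0.81, rho = -0.82), each with adjusted permutation p under the threshold, the highest of them 0.000375. Adcy5 had r = -0.59 and Prkaca r = 0.61, while Ppp1r1b had 0.44 (adjusted permutation p = 0.0758) and Gng7 -0.056. Of the 9 members other than Prkar1b, 6 were related to the FPKM sum, 5 to RIN, 4 to the cortical marker level, 3 to the choroid plexus marker level and 1, Gnb1, to relative depth, with p-values adjusted over 50 relations. The percent of all genes related to each measure was not computed, so these counts do not set the members apart from other genes. Prkar1b had r = -0.56 with the FPKM sum with its zeros and 0.27 over the 23 other libraries. When the FPKM sum was removed beside the group means, an alternative chosen after the values were seen, r between Ppp1r1b and Gnal went from 0.09 to 0.87, and between Ppp1r1b and Arpp21 from 0.10 to 0.89. Gnal and Gnb1 went from 0.60 to -0.20. Ppp1r1b and Ptpn5 stayed at 0.89, and Gnal and Arpp21 at 0.86. With RIN and the cortical and choroid plexus marker levels removed as well, r of Gnal and Gnb1 was 0.48. It was then 0.79 for Ppp1r1b and Gnal, 0.80 for Ppp1r1b and Arpp21, 0.75 for Ppp1r1b and Ptpn5, and 0.69 for Gnal and Arpp21. What sets the FPKM sum, and its part in the relations between members, was not tested.

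**Figure D4:**
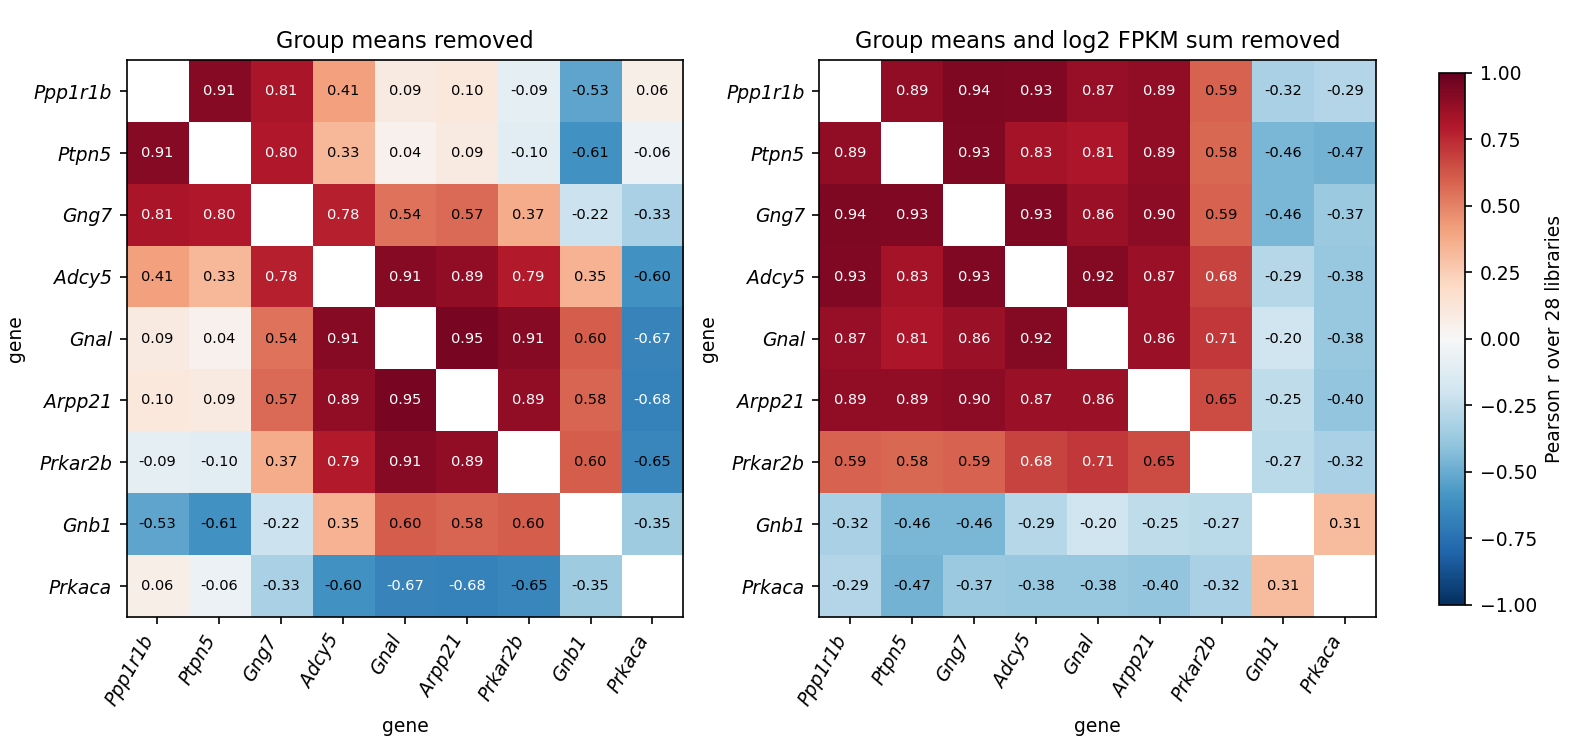
Pearson r over 28 libraries between 9 members (Prkar1b is left out because of its zeros), after removing group means (left) and after also removing the log2 FPKM sum (right), from -1 in blue to 1 in red. On the left Ppp1r1b, Ptpn5 and Gng7 form one block and Adcy5, Gnal, Arpp21 and Prkar2b another, with Gng7 also related to Adcy5 (0.78), Arpp21 (0.57) and Gnal (0.54); on the right r between Ppp1r1b and Gnal is 0.87, and Gnb1 and Prkaca have negative r with the other 7.

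The markers of cortical excitatory neurons, which belong to tissue that lies over the striatum, were lower where Ppp1r1b, Gng7, Ptpn5 and Adcy5 were higher. The mean log2 level of the 9 markers, all of which were tested genes, had r = -0.67 with Ppp1r1b (rho = -0.61, adjusted permutation p = 0.00955), -0.75 with Gng7 (rho = -0.70, adjusted permutation p = 0.0006), -0.69 with Ptpn5 (rho = -0.58, adjusted permutation p = 0.00536) and -0.57 with Adcy5 (rho = -0.49, adjusted permutation p = 0.0161). Without the 2 libraries farthest from the median marker level, r was -0.56, -0.63, -0.56 and -0.40. For Ppp1r1b, r was -0.72 in batch 1 and -0.34 in batch 2. With cortical and choroid plexus marker levels removed, r between Ppp1r1b and Ptpn5 was 0.83 and between Ppp1r1b and Gng7 0.66. The choroid plexus level had r = -0.64 with Prkaca (rho = -0.56, adjusted permutation p = 0.00208). It had 0.52 with Adcy5 (rho = 0.37, adjusted permutation p = 0.0222), which was 0.22 without the 2 farthest libraries and rests on them. RIN had r = 0.53 with Arpp21 (rho = 0.54) and 0.51 with Gnal (rho = 0.51), at 0.84 in batch 1 and 0.14 in batch 2 for Gnal. The part of the marker levels and of RIN in the relations between members was not tested further.

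**Figure D5:**
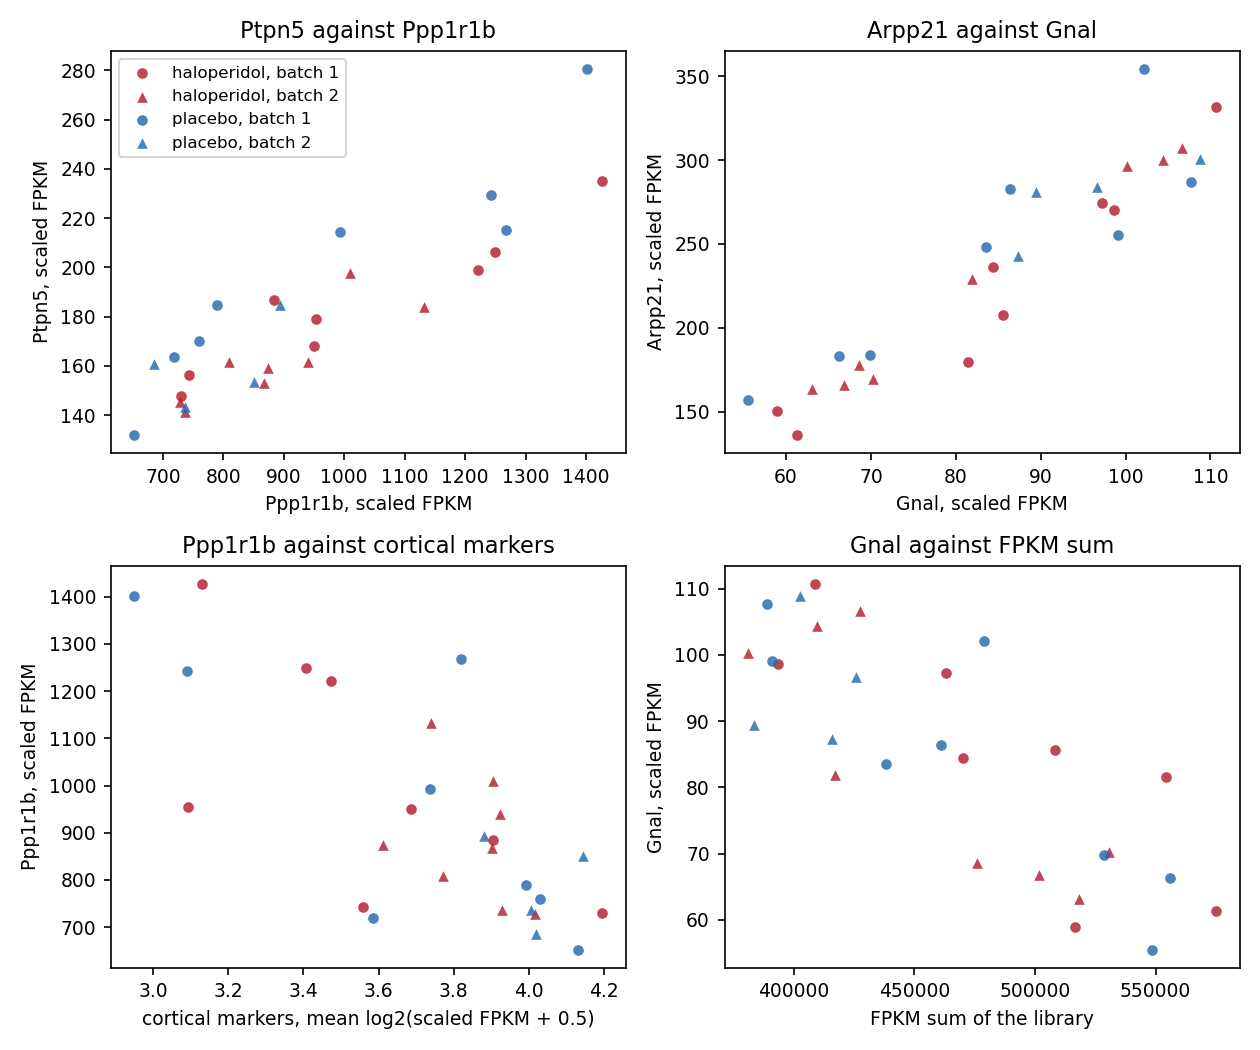
Scaled FPKM of 4 pairs across the 28 libraries, with haloperidol in red, placebo in blue, circles for batch 1 and triangles for batch 2. Ptpn5 climbs with Ppp1r1b and Arpp21 with Gnal, Ppp1r1b is lower where the mean log2 level of the cortical markers is higher, and Gnal is lower where the FPKM sum of the library is higher.

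The genes most like Ppp1r1b across the 28 libraries, by Pearson r of log2 level with group means removed, were Pde1b (r = 0.95), a calmodulin-dependent phosphodiesterase, Lingo3 (0.95), the adenosine receptor gene Adora2a (0.94), Syndig1l (0.94), the Rap exchange factor gene Rasgrp2 (0.93) and Pcp4l1 (0.91). Their mean levels ran from 30.6 scaled FPKM for Lingo3 to 362 for Pde1b, all under Ppp1r1b. Within batch 2, r was still 0.87 to 0.95 for these 6 genes. Ptpn5 ranked 7 and Gng7 47 of 12759 genes by this measure, Adcy5 2345, Arpp21 5672 and Gnal 5804. The genes least like it were Ildr2 (-0.92), the neuronal RNA-binding protein gene Elavl4 (-0.86) and Slit1 (-0.85), an axon guidance ligand, at 5.20 to 13.6 scaled FPKM. These values describe these 28 libraries, in which Ppp1r1b also varied with the cortical marker level. With the log2 FPKM sum also removed, r of Ppp1r1b was 0.93 with Adcy5, 0.89 with Arpp21 and 0.87 with Gnal. Ranks with that sum removed were not computed.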

How the data were processed

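RNA from mouse striatum was sequenced in 28 libraries, made with an Illumina TruSeq RNA v2 kit per the labels' protocols. TopHat2 2.0.6, Cufflinks (no version given) and the build mm9 are named in the submitters' processing notes. The authors deposited 1 table per library with an FPKM for each of 30563 RefSeq transcripts, per the file headers and contents, and these other attributes: coverage and an FPKM interval. Without counts, no counting error could be set. Gene values are sums over a symbol's transcripts, and each library was scaled by its median-of-ratios factor (0.916 to 1.04), which gives the scaled FPKM printed with SDs. The 12760 genes averaging FPKM 1 or more entered limma 3.58.1 (R 4.3.3; trended eBayes). The response was log2(scaled FPKM + 0.5), the terms were treatment and batch, tests were 2-sided and p-values were adjusted by Benjamini-Hochberg, at 0.05; fold changes on this scale understate low genes. Transcripts and their shares were tested likewise. Pairs of members, and members against library measures, used residuals from treatment-by-batch means and 100000 permutations within those groups, run in Python 3.11.15 (NumPy 2.4.6, SciPy 1.17.1). The gene test was tested on simulated data. Named genes were the 10 members, up to 3 genes with the smallest p in each pathway list, the 6 genes most and 3 least like Ppp1r1b, and genes that overlap a member; of the second kind, some are left out of the text. The members and lists were chosen with earlier results of these data known. GENCODE M21 and RefSeq tables (GRCm38) gave promoter sequence and GC content only, and no coordinates were converted.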

Additional observations from a re-analysis of the deposited data

Results flagged for a closer look

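Prkar1b in haloperidol replicate 19 of batch 1 was listed at 0, far below the other 7 libraries of that group, which lay between 216 and 362 scaled FPKM. The library had an FPKM sum of 554440 and a RIN of 7.61. It was the only value set apart in this way among 40 sets of libraries (10 members in 4 treatment-by-batch groups), and chance alone sets apart about 1 in 20 such sets. The other libraries at 0 came in pairs within their groups, which this measure does not pick out.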

How the results depend on the processing

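The count of members past the threshold for haloperidol was 0 in all 45 alternative fits, and so was that of pathway genes; the smallest limma adjusted p of any member in any of them was 0.221. Directions were less fixed. The log2 fold change changed sign for Ppp1r1b with quantile normalization (-0.082), for Prkaca with rescaling to a common sum (-0.028), a scaling that moved the median of all genes to -0.080, for Gnal (0.041), Adcy5 (0.066) and Prkar1b (0.81) with the log2 FPKM sum as a covariate, for Gnal (0.020), Adcy5 (0.084) and Prkar1b (1.203) in batch 1 alone, for Ptpn5 in batch 2 alone (0.020), for Adcy5 (0.0073) and Ptpn5 (0.032) without libraries of RIN under 7.5, and for Prkar1b with array weights (0.14) or with zeros as missing (0.028). Leaving out 1 library at a time gave -0.094 to 0.016 for Adcy5, -0.088 to 0.0019 for Ptpn5 and -0.83 to 0.39 for Prkar1b. Gng7, Gnb1, Prkar2b and Arpp21 kept their sign throughout.

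Between batches, array weights called 2 members, Gnb1 and Ptpn5, but also 51.7% of all genes. The batch difference of Ppp1r1b changed sign with quantile normalization (0.12) and with cortical markers as a covariate (0.0067), as did that of Gng7 with the latter (0.010). Rescaling to a common sum moved the median batch difference of all genes to 0.15. The called Gnb1 transcript NM_008142 gave 0 calls among member transcripts without scaling, with RIN as a covariate and with the log2 FPKM sum as a covariate, and 0 to 1 when 1 library was left out, with a log2 difference of 0.43 to 0.52. The number of related pairs, with the zeros of Prkar1b kept, was 20 to 24 of 45 under 5 alternatives. No paired analysis was possible because mouse numbers are not shared between the groups. The intervals, rather than the calls, show what 28 mice can resolve. The causes of these changes were not tested.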

Other observations

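GC content was set beside each member's relation to the FPKM sum, after both were seen and as a description of 10 genes. It was taken from the GENCODE M21 transcript paired with the main RefSeq transcript, which is not the same sequence: it is 3470 bases against 5222 for Gnal, 7008 against 5060 for Adcy5 and 2001 against 1666 for Ppp1r1b, and differs by at most 121 bases for the other 7. GC content was 42.8% for Arpp21, 44.1% for Prkar2b, 48.2% for Gnb1 and 52.0% for Gnal, and these 4 had r of -0.81 to -0.84 with the log2 FPKM sum. Gng7 (54.4%) had -0.056, Prkaca (54.9%) 0.61, Ptpn5 (58.4%) 0.45 and Ppp1r1b (61.0%) 0.44. Adcy5, at 59.5%, departed from that order with -0.59. Prkar1b (55.9%) had -0.56 with its zeros and 0.27 over the 23 other libraries. RefSeq transcript length did not follow the same order, from 1666 bases for Ppp1r1b to 5222 for Gnal.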
